A study of Arabidopsis thaliana with 39 samples.

Results

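WRKY transcription factors are a plant family named for the conserved peptide WRKYGQK of their DNA-binding domain. They bind a short element, the W-box, in the promoters of genes that respond to pathogens, salicylic acid, wounding, heat and leaf ageing. Many WRKY genes have W-boxes in their own promoters and are activated within minutes by pattern-recognition receptors through mitogen-activated protein kinases, so that activating and repressing members act on one another. The family is divided by the number of WRKY domains and the type of zinc finger into groups I, IIa to IIe and III, and these names are used below to order the members.

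A list of 44 WRKY genes of Arabidopsis thaliana was followed through 22 RNA-seq libraries. The members are given by gene identifier, in a rule that holds no measured value, although the family was picked for study with earlier results of these data known. They were all present in the tables, which hold 33602 genes for the heat experiment and 64790 genes and other features for the lug experiment. The list was not the whole family, since 28 further genes carry a WRKY name in the reference annotation. Of the 44 members, 42 passed the filter on low counts in the heat experiment, all but WRKY65 (AT1G29280) and WRKY72 (AT5G15130), and 33 passed in the lug experiment, where WRKY28 (AT4G18170), WRKY30 (AT5G24110), WRKY31 (AT4G22070), WRKY41 (AT4G11070), WRKY44 (AT2G37260), WRKY45 (AT3G01970), WRKY51 (AT5G64810), WRKY55 (AT2G40740), WRKY65, WRKY72 and WRKY75 (AT5G13080) did not.

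A pair of experiments supplied the libraries. In the heat experiment, morchex plants were compared with WT plants of the same background, Col-0, before heat (T0, 0 h), directly after 0.5 h of heat (T30) and after 48 h back at normal temperature (T48). The morchex line carries T-DNA insertions in all 6 MORC genes (morc1-2, morc2-1, morc4-1, morc5-1, morc6-3 and morc7-1), which encode ATPases that compact chromatin. The morchex groups held 3 libraries (T0), 2 libraries (T30) and 2 libraries (T48), and each WT group held 3. In the second experiment, 3 libraries of the lug mutant, whose allele the labels do not give, were compared with 3 libraries of Ler, the accession Landsberg erecta, without heat. LUG, or LEUNIG, is a transcriptional co-repressor. All plants were 5 to 6 weeks old, grown at 22 °C with 16 h of light and 8 h of dark, and no unheated plants were sampled at 48 h, so 48 h of further growth and the heat history cannot be told apart at T48.

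Rounded expected counts per library summed to 12752836 to 25054384 in morchex, 8606374 to 15342615 in WT, 12749843 to 15342057 in lug and 11411580 to 15862563 in Ler. MORC1 was at 1.41, 1.59 and 1.5 TPM (a level per length of transcript, scaled to the same total in every library) in morchex at T0 and at 4.62, 6.52 and 6.35 TPM in WT, and for MORC1, MORC2, MORC6 and MORC7 every morchex library lay below the WT libraries of the same time. MORC4 was instead at 9.84, 11.5 and 12.1 TPM in morchex and 2.68, 3.24 and 2.96 TPM in WT at T0, and MORC5 reached 0.36 TPM in morchex and was at 0 in WT, so the transcript levels of MORC4 and MORC5 do not check the genotype labels. LUG was at 7.47, 6.86 and 6.75 TPM in lug and 19.8, 21.4 and 20.8 TPM in Ler, a log2 fold change of -1.4 (SE 0.114, edgeR adjusted p = 0.00688). The labels name floral tissue, but 4 of 7 floral organ identity genes were at or near 0 over the 22 libraries. AP1 did not exceed 0.1 TPM, SEP2 0.15 TPM, AP3 0.65 TPM and PI 2.03 TPM. AG, SEP1 and SEP3 were instead above 0 in every library. AG lay between 0.71 and 3.77 TPM, SEP1 between 0.75 and 5.83 TPM and SEP3 between 2.08 and 90.8 TPM. Of 10 anther and tapetum genes, 1 passed the filter in either experiment. The groups are named below by genotype and time and not by organ.

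Before heat the WRKY genes were mostly low, and at T48 their summed level was several times higher in both genotypes. Over the 44 members, TPM summed to between 1658 and 1689 in the morchex T48 libraries, against 208.5 to 237.7 at T0, and to between 966 and 1364 in the WT T48 libraries, against 197.3 to 270.1 at T0. At T30 the sums were 182.1 and 185.8 in morchex, below those of T0, and 140.6 to 211.6 in WT, where they overlapped those of T0. Members with a mean of at least 10 TPM numbered 7 at T0, 5 at T30 and 26 at T48 in morchex, and 8, 3 and 23 at the same times in WT. The median member was at 1.73, 1.25 and 15.7 TPM in morchex and at 1.68, 1.16 and 10.4 TPM in WT. All genes also shifted on the TPM scale. On log2(TPM + 0.1) the median of all tested genes moved by -0.29 in morchex and -0.42 in WT from T0 to T30. From T0 to T48 it moved by 0.35 in morchex and 0.2 in WT. A lower sum in TPM at T30 is thus not by itself a decrease particular to the members. In bulk tissue, fewer cells of a type and less RNA per cell cannot be told apart.

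The highest members at T0 were the same 5 in both genotypes: WRKY11 (AT4G31550) and the group I genes WRKY1 (AT2G04880), WRKY3 (AT2G03340) and WRKY20 (AT4G26640), beside WRKY70 (AT3G56400), a regulator that promotes salicylic acid responses and restrains jasmonate responses. WRKY70 averaged 30.1 ± 7.81 TPM in morchex and 27.5 ± 22.5 TPM in WT at T0 (SD, n = 3 each). At T48 WRKY70, WRKY18 (AT4G31800) and WRKY54 (AT2G40750) led in both. Neighbours in the order of levels often overlapped. WRKY18 and WRKY54, for example, had 136, 141 and 175 TPM and 74.2, 81.7 and 92.3 TPM in WT at T48 and did not overlap, whereas WRKY46 (AT2G46400), with 41.8, 15.8 and 36.1 TPM, and WRKY33 (AT2G38470), with 50.8, 17.7 and 37.8 TPM, did. The heat map of all members and libraries shows the T48 columns standing apart from T0 and T30.

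**Figure D1:**
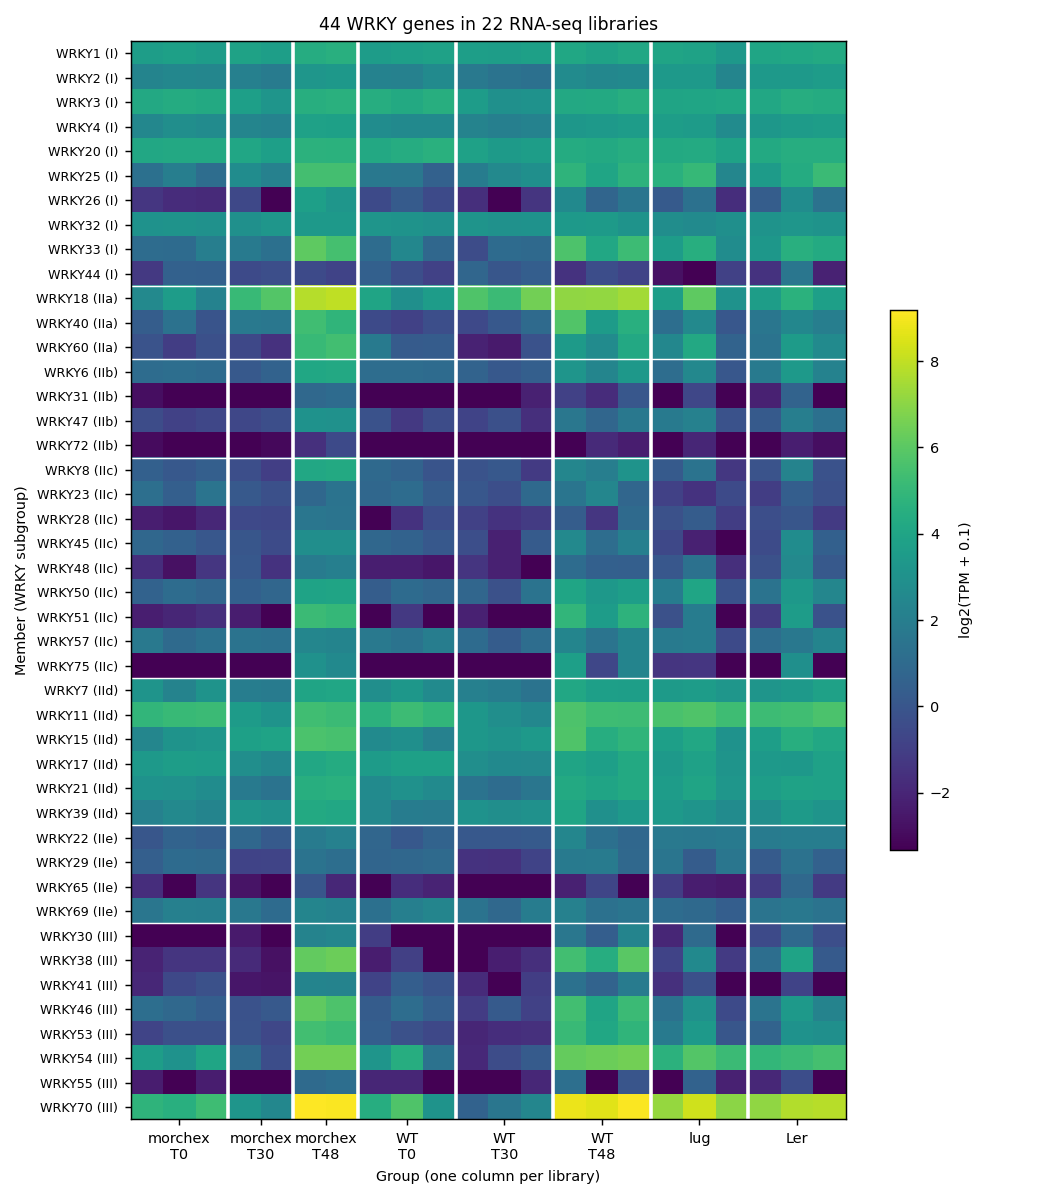
Level of each of the 44 WRKY genes (rows, grouped by subgroup) in each of the 22 RNA-seq libraries (columns, grouped by genotype and time), coloured by log2(TPM + 0.1). The 5 columns of T48 are brighter than those of T0 and T30 in most members of groups IIa, IIb, IIc and III, and 26 members in morchex and 23 in WT reached a mean of 10 TPM there.

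The comparison of T48 with T0 asks how the WRKY genes stood after 48 h of recovery at normal temperature. Of the 42 tested members, 28 were called higher and 0 lower in morchex, and 26 were called higher and 0 lower in WT, where called means a Benjamini-Hochberg adjusted p under 0.05 over all genes in edgeR's quasi-likelihood test and a fold change over 2. The background of all 18827 tested genes was 13.8% higher and 12.4% lower in morchex, and 9.39% higher and 4.3% lower in WT. All 26 members called in WT were among the 28 called in morchex. Tested members had a median log2 fold change of 2.82 in morchex and 1.85 in WT, against 0.03 and 0.01 for all tested genes in morchex and in WT. A member at 0 before heat passes the filter through its T48 libraries alone, so these counts are also given for the 31 members that passed on the T0 libraries by themselves: 17 were higher in morchex and 16 in WT, and 0 were lower, with 10.6% of all such genes higher in morchex and 6.72% in WT. The labels do not say whether libraries came from separate plants or cultures, so the p-values measure the spread between these libraries.

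**Figure D2:**
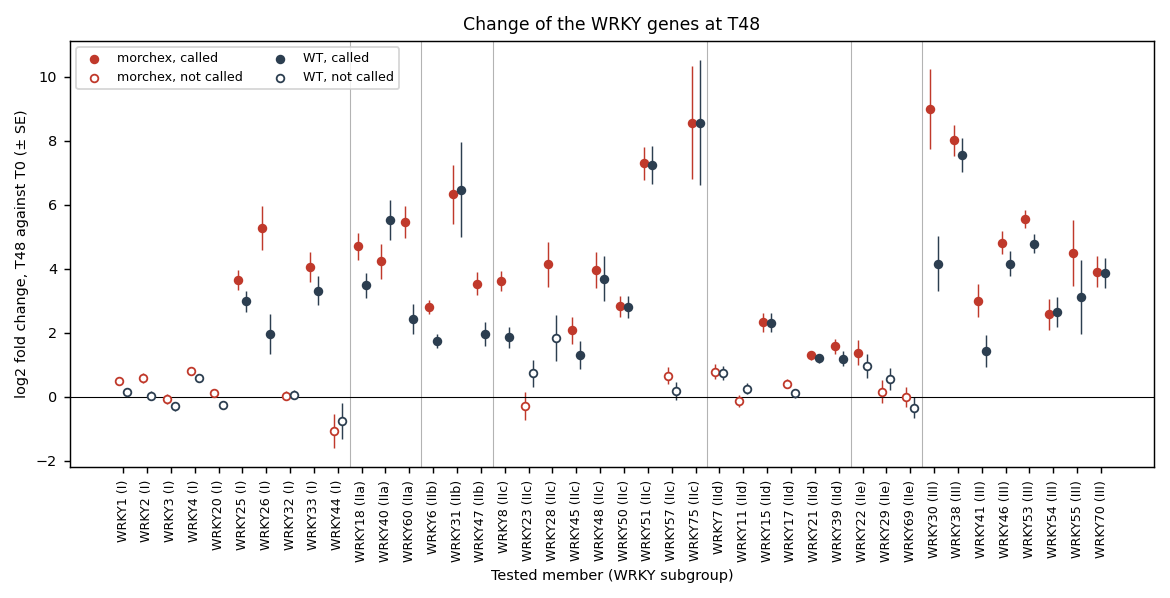
Log2 fold change of T48 against T0 (y axis, bars ± 1 SE from edgeR) for the 42 tested members (x axis, grouped by subgroup) in morchex and in WT, with filled points for called members. Group III members all lie above 0 in both genotypes and are called, and the group I members other than WRKY25, WRKY26 and WRKY33 lie between -1.07 and 0.82.

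Group III held 8 tested members and all 8 were called higher in both genotypes. Of the 8, 4 passed the filter on the T0 libraries alone and these 4 were called, while the other 4 passed only with the later libraries included. WRKY53 (AT4G23810), a regulator of leaf senescence and basal resistance, had the smallest adjusted p of any member. WRKY53 had 41.2 and 36.3 TPM in morchex at T48, against 0.50, 0.74 and 0.73 TPM at T0. WRKY53 in WT was at 35.5, 17.2 and 28.5 TPM at T48, against 1.22, 0.75 and 0.56 TPM at T0. The T48 libraries lay far above those of T0 with no overlap, and the log2 fold changes of WRKY53 were 5.55 (SE 0.295, edgeR adjusted p = 6.25e-09) in morchex and 4.78 (SE 0.292, edgeR adjusted p = 8.26e-08) in WT. WRKY53 overlaps a gene on the opposite strand, AT4G23800, and the methods name a stranded kit but default RSEM settings, which do not use strand. Reads that lie within the overlap therefore cannot be assigned by strand, and the length of the overlap was not measured. WRKY38 (AT5G22570) had 71.3 and 82.6 TPM in morchex at T48, against 0.14, 0.28 and 0.28 TPM at T0. WRKY38 in WT was at 42.2, 21.9 and 63.1 TPM at T48, against 0.10, 0.41 and 0 TPM at T0. WRKY38, a negative regulator of basal defence, was thus close to 0 in each T0 library and high in each T48 library. Here the log2 fold changes of WRKY38 were 8.02 (SE 0.484, edgeR adjusted p = 1.49e-08) in morchex and 7.54 (SE 0.531, edgeR adjusted p = 2.45e-07) in WT. WRKY38 had 0 to 4 counts in each T0 library, so the size of these folds is imprecise. It was among the 4 members that passed only with the later libraries included. WRKY46 had 70.6 and 51.5 TPM in morchex at T48, against 2.19, 1.75 and 1.23 TPM at T0. WRKY46 in WT was at 41.8, 15.8 and 36.1 TPM at T48, against 1.15, 2.08 and 1.26 TPM at T0. The groups did not overlap for WRKY46, and its log2 fold changes were 4.82 (SE 0.368, edgeR adjusted p = 8.89e-08) in morchex and 4.16 (SE 0.381, edgeR adjusted p = 1.96e-06) in WT.

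WRKY70 and its close homologue WRKY54, which also acts in salicylic acid signalling and senescence, were the most abundant members of the group. WRKY70 had 577 and 557 TPM in morchex at T48, against 27.9, 23.6 and 38.7 TPM at T0. WRKY70 in WT was at 452, 386 and 545 TPM at T48, against 21.9, 52.2 and 8.33 TPM at T0. The T0 libraries of WT differed among themselves, replicate 2 being the highest and replicate 3 the lowest, but all lay below T48. Between T48 and T0 the log2 fold changes of WRKY70 were 3.91 (SE 0.488, edgeR adjusted p = 8.75e-06) in morchex and 3.86 (SE 0.472, edgeR adjusted p = 2.01e-05) in WT. WRKY54 had 90.3 and 92.2 TPM in morchex at T48, against 12.1, 8.15 and 16.1 TPM at T0. WRKY54 in WT was at 74.2, 81.7 and 92.3 TPM at T48, against 9.02, 22.2 and 2.49 TPM at T0. Again WT replicates 2 and 3 were the extremes at T0, and the log2 fold changes of WRKY54 were 2.57 (SE 0.479, edgeR adjusted p = 0.000336) in morchex and 2.65 (SE 0.465, edgeR adjusted p = 0.000416) in WT. WRKY30, an early stress-responsive member, had 0 counts in the 3 morchex libraries at T0 and 250 over the 2 at T48, so that it was at least 68.5-fold higher at T48 (floor of 3 counts over the group). In WT WRKY30 had 2.99, 1.24 and 4.88 TPM at T48, against 0.39, 0 and 0 TPM at T0, and its log2 fold change was 4.16 (SE 0.852, edgeR adjusted p = 0.00283). WRKY41 and WRKY55 completed the group at under 5 TPM in each library. For WRKY55, 65 counts at T48 against 2 at T0 in morchex gave a ratio of 26.7 (95% exact counting interval 7.1 to 225), and 22 against 2 in WT gave 9.77 (2.4 to 85.7).

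The promoters of WRKY53, WRKY38, WRKY51, WRKY46 and WRKY30 are shown because these members had among the largest changes at T48 and differ in whether a W-box, the element that WRKY proteins bind, lies close to the start. Each is the 250 bases before the annotated start, 5′ to 3′ on the strand of the gene, from RefSeq TAIR10.1. Capitals mark the W-box, searched as TTGACC or TTGACT and, for the other strand, GGTCAA or AGTCAA. WRKY53 (chr4:12393983-12394232, minus strand) holds 2, whose first bases lie 219 and 71 bases before the start. WRKY30 (chr5:8154711-8154960, minus strand) holds 3, at 124, 69 and 61 bases. WRKY38 (chr5:7496991-7497240, minus strand), WRKY51 (chr5:25907997-25908246, plus strand) and WRKY46 (chr2:19044956-19045205, minus strand) hold 0 in this window.
WRKY53: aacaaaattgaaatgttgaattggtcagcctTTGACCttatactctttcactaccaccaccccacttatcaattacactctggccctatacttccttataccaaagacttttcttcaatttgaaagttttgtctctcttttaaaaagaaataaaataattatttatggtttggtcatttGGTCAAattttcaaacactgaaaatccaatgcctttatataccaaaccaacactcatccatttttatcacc
WRKY30: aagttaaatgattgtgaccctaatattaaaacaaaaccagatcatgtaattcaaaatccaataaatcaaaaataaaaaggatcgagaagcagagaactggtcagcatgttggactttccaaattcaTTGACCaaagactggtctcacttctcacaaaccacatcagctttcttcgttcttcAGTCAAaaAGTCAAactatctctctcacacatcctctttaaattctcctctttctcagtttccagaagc
WRKY38: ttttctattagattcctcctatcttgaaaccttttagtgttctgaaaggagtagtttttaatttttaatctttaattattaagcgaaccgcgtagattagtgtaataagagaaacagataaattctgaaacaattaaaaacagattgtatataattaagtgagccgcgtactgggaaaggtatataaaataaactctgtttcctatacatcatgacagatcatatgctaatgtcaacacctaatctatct
WRKY51: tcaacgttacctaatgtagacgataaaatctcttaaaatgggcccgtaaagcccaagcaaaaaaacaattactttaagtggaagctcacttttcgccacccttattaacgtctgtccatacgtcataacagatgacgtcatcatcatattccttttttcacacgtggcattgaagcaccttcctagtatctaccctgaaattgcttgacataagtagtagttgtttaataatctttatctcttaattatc
WRKY46: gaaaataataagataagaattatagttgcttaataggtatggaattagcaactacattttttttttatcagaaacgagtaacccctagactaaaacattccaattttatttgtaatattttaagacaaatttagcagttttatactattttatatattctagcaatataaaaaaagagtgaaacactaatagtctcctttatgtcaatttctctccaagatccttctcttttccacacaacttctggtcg

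Over 1000 bases before the start, 39 of the 44 members (88.6%) held at least 1 W-box, against 67.3% of 27443 protein-coding genes, and members averaged 1.98 W-boxes against 1.21. WRKY17 (AT2G24570) held the most, 7, WRKY11 held 5, and WRKY2 (AT5G56270), WRKY38, WRKY57 (AT1G69310), WRKY65 and WRKY70 held 0. Within 250 bases, 17 members (38.6%) held a W-box, against 28.4% of genes. A heat shock element, searched as GAANNTTCNNGAA or TTCNNGAANNTTC, was found in 0 of 44 promoters and in 1.7% of all genes over 1000 bases. By call at T48, 26 of the 28 members called higher in morchex held a W-box within 1000 bases, and so did 12 of the 14 that were tested and not called, with 24 of 26 and 14 of 16 in WT. WRKY70 and WRKY38, both called higher at T48, held none, and WRKY17 and WRKY11, with the most, were not called. In the other direction, WRKY2 and WRKY57 held none and were not called. WRKY8, WRKY33, WRKY39 and WRKY45 held 4 each and were called higher in both genotypes. A match of letters is a description and not a site of binding.

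Group IIa comprises WRKY18, WRKY40 (AT1G80840) and WRKY60 (AT2G25000), which bind one another and restrain early immune responses, and all 3 were called higher at T48 in both genotypes. WRKY18 had 222 and 256 TPM in morchex at T48, against 5.84, 12.04 and 4.6 TPM at T0. WRKY18 in WT was at 136, 141 and 175 TPM at T48, against 15.8, 7.25 and 12.03 TPM at T0. At T48 the log2 fold changes of WRKY18 were 4.7 (SE 0.415, edgeR adjusted p = 3.18e-07) in morchex and 3.49 (SE 0.383, edgeR adjusted p = 8.08e-06) in WT. WRKY40 had 39.8 and 28.5 TPM in morchex at T48, against 1.18, 2.49 and 0.86 TPM at T0. WRKY40 in WT was at 55.5, 11.6 and 23.6 TPM at T48, against 0.59, 0.43 and 0.71 TPM at T0. The WT libraries at T48 ranged widely, replicate 1 being the highest and replicate 2 the lowest, and remained above T0. The log2 fold changes of WRKY40 were 4.23 (SE 0.533, edgeR adjusted p = 9.48e-06) in morchex and 5.53 (SE 0.627, edgeR adjusted p = 1.06e-05) in WT. WRKY40 overlaps an opposite-strand gene, AT1G80850. WRKY60 had 33.7 and 41.6 TPM in morchex at T48, against 0.83, 0.38 and 0.74 TPM at T0. WRKY60 in WT was at 10.98, 6.45 and 18.7 TPM at T48, against 3.4, 1.1 and 1.16 TPM at T0. All T48 libraries lay above those of T0, and the log2 fold changes of WRKY60 were 5.46 (SE 0.511, edgeR adjusted p = 5.38e-07) in morchex and 2.43 (SE 0.459, edgeR adjusted p = 0.000756) in WT. In group IIb, WRKY6 (AT1G62300), WRKY31 and WRKY47 (AT4G01720) were called higher in both, and WRKY72 was not tested. Of the 3 tested, 2 passed the filter on the T0 libraries alone and these 2 were called. WRKY6 had 17.5 and 18.7 TPM in morchex at T48, against 2.06, 2.2 and 1.98 TPM at T0. WRKY6 in WT was at 9.07, 5.05 and 10.1 TPM at T48, against 2.14, 2.08 and 2.0 TPM at T0. The groups of WRKY6, which acts in senescence, pathogen and phosphate responses, did not overlap, and the log2 fold changes of WRKY6 were 2.8 (SE 0.217, edgeR adjusted p = 9.89e-08) in morchex and 1.76 (SE 0.218, edgeR adjusted p = 2.25e-05) in WT. WRKY47 had 8.11 and 7.96 TPM in morchex at T48, against 0.66, 0.43 and 0.53 TPM at T0. WRKY47 in WT was at 2.97, 1.67 and 3.13 TPM at T48, against 0.78, 0.32 and 0.66 TPM at T0. No T48 library fell within the T0 range, and the log2 fold changes of WRKY47 were 3.54 (SE 0.349, edgeR adjusted p = 9.09e-07) in morchex and 1.95 (SE 0.372, edgeR adjusted p = 0.000805) in WT. WRKY31 had 136 counts at T48 against 1 at T0 in morchex, a ratio of 112 (95% exact counting interval 19.7 to 4450), and was at least 7.99-fold higher in WT, with 27 counts against 0.

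In group IIc, 7 of 9 members were called higher in morchex and 6 in WT, and of the 4 that passed the filter on the T0 libraries alone 2 were called in each genotype. WRKY50 (AT5G26170) and WRKY51 mediate the repression of jasmonate signalling by salicylic acid. WRKY51 had 36.6 and 32.1 TPM in morchex at T48, against 0.11, 0.15 and 0.22 TPM at T0. WRKY51 in WT was at 30.3, 12.02 and 27.3 TPM at T48, against 0, 0.32 and 0 TPM at T0. WRKY51 was near 0 in each T0 library and at 12.0 TPM or more in each T48 library. Its log2 fold change in morchex was 7.29 (SE 0.522, edgeR adjusted p = 5.11e-08), and in WT 391 counts against 2 gave a ratio of 174 (95% exact counting interval 47.7 to 1440). With 0 to 2 counts in each T0 library, WRKY51 passed the filter only with the later libraries included, and the size of its folds is imprecise. WRKY50 had 15.2 and 15.5 TPM in morchex at T48, against 1.44, 2.01 and 1.65 TPM at T0. WRKY50 in WT was at 16.1, 10.01 and 12.7 TPM at T48, against 1.2, 1.95 and 1.67 TPM at T0. The groups did not overlap, and the log2 fold changes of WRKY50 were 2.83 (SE 0.321, edgeR adjusted p = 3.34e-06) in morchex and 2.8 (SE 0.336, edgeR adjusted p = 1.7e-05) in WT. WRKY8 (AT5G46350) had 17.96 and 19.3 TPM in morchex at T48, against 1.32, 0.98 and 1.29 TPM at T0. WRKY8 in WT was at 5.19, 4.02 and 8.42 TPM at T48, against 1.82, 1.46 and 0.85 TPM at T0. The T48 libraries of WRKY8, which acts in defence against viruses and Botrytis, were all above those of T0, and the log2 fold changes of WRKY8 were 3.61 (SE 0.319, edgeR adjusted p = 3.23e-07) in morchex and 1.86 (SE 0.327, edgeR adjusted p = 0.000436) in WT. WRKY75, known for phosphate starvation and senescence, had 0 counts in every T0 library. It had 7.82 and 6.03 TPM in morchex and 13.3, 0.54 and 4.84 TPM in WT at T48, and was at least 50.7-fold higher in morchex and at least 34.0-fold higher in WT than at T0. Replicate 2 of WT, with 3 counts, stood well below the other WT libraries, and DESeq2 did not call WRKY75 (adjusted p = 0.0751 in morchex and 0.0878 in WT). WRKY28 was called in morchex at 4.14 (SE 0.71, edgeR adjusted p = 0.000167) and not in WT, where the log2 fold change was 1.84 (SE 0.716, edgeR adjusted p = 0.0551), and the test of the difference gave 2.3 (SE 1.12, edgeR adjusted p = 0.205). WRKY57, which acts in drought tolerance, and WRKY23 (AT2G47260) were not called in either genotype.

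Group I, the members with a pair of WRKY domains, gave a contrast within itself. WRKY25 (AT2G30250), WRKY26 (AT5G07100) and WRKY33 were called higher in both genotypes, although WRKY26 in WT was not called without replicate 1 (1.8) or 3 (1.84) of T0 or replicate 1 of T48 (1.3), and the other 7, WRKY1, WRKY2, WRKY3, WRKY4 (AT1G13960), WRKY20, WRKY32 (AT4G30935) and WRKY44, were not called in either. On the T0 libraries alone 9 members of group I passed the filter, of which 2 were called higher in each genotype. The member that did not pass was WRKY26, with 3 to 13 counts in each T0 library. WRKY25, WRKY26 and WRKY33 are known for heat tolerance, and WRKY33 also activates PAD3, a camalexin synthesis gene, as a substrate of MPK3 and MPK6. WRKY25 had 43.6 and 43.5 TPM in morchex at T48, against 2.33, 4.01 and 2.09 TPM at T0. WRKY25 in WT was at 27.4, 16.2 and 26.8 TPM at T48, against 3.13, 3.05 and 1.35 TPM at T0. All T48 libraries were above those of T0, and the log2 fold changes of WRKY25 were 3.66 (SE 0.316, edgeR adjusted p = 2.64e-07) in morchex and 2.98 (SE 0.318, edgeR adjusted p = 6.37e-06) in WT. WRKY33 had 67.7 and 44.1 TPM in morchex at T48, against 2.07, 1.99 and 3.95 TPM at T0. WRKY33 in WT was at 50.8, 17.7 and 37.8 TPM at T48, against 2.05, 5.38 and 1.68 TPM at T0. Against T0 the log2 fold changes of WRKY33 were 4.05 (SE 0.467, edgeR adjusted p = 4.01e-06) in morchex and 3.31 (SE 0.455, edgeR adjusted p = 5.62e-05) in WT. WRKY33 overlaps an opposite-strand gene, AT2G38480. By comparison WRKY32 had 10.4 and 10.6 TPM in morchex at T48, against 8.18, 8.4 and 7.84 TPM at T0, with a log2 fold change of 0.04 (SE 0.144, edgeR adjusted p = 0.821). In group IId, whose members bind calmodulin, WRKY15 (AT2G23320), WRKY21 (AT2G30590) and WRKY39 (AT3G04670) were called higher in both genotypes and WRKY7 (AT4G24240), WRKY11 and WRKY17, which restrain basal resistance, in neither. WRKY21 had 22.6 and 24.02 TPM in morchex at T48, against 8.16, 7.88 and 6.75 TPM at T0. WRKY21 in WT was at 18.96, 15.6 and 19.2 TPM at T48, against 6.24, 7.96 and 6.15 TPM at T0. The change of WRKY21 was small beside that of group III and the groups still did not overlap. The log2 fold changes of WRKY21 were 1.3 (SE 0.137, edgeR adjusted p = 1.77e-06) in morchex and 1.2 (SE 0.133, edgeR adjusted p = 8.53e-06) in WT. In group IIe, WRKY22 (AT4G01250), which acts with WRKY29 (AT4G23550) below the flagellin receptor, was called in morchex at 1.38 (SE 0.383, edgeR adjusted p = 0.0066) and not in WT at 0.97 (SE 0.387, edgeR adjusted p = 0.0615). The test of that difference gave 0.42 (SE 0.55, edgeR adjusted p = 0.675).

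Genes that act before or after the WRKY factors were counted in the same comparison. Of 18 defence genes linked to WRKY factors, 18 were called higher in morchex and 17 in WT, and 0 were lower, with medians of 5.02 and 3.89. FRK1, FMO1 and ALD1 among them had 0 to 4 counts in each T0 library and passed the filter only with the later libraries included. The lists of this paragraph were not counted again on the T0 libraries alone. NPR3, a salicylic acid receptor, had 44.9 and 44.4 TPM in morchex at T48, against 4.39, 3.63 and 3.73 TPM at T0, and 21.9, 13.4 and 24.1 TPM in WT at T48, against 3.68, 3.38 and 2.61 TPM at T0. FRK1, a marker of receptor-triggered immunity, had 17.9 and 18.7 TPM in morchex and 8.61, 2.75 and 6.16 TPM in WT at T48, and did not exceed 0.05 TPM in any T0 library. Of 9 kinases and VQ-motif partners of WRKY proteins, 7 were called higher in morchex and 6 in WT, among them MPK11, MPK3, MKK4 and the WRKY33 partner SIB1. The 28 other WRKY genes gave 9 that could be tested, of which WRKY58, WRKY62 and WRKY63 were called higher in both genotypes and WRKY13 in WT. WRKY62 and WRKY63 had at most 2 counts in each T0 library and also passed only with the later libraries included. Of 12 touch and wound genes, which respond to handling, 11 were tested, and 7 were called higher and 1 lower in each genotype, with TCH3 and ZAT10 among the higher. Their summed level was 837.2 and 686.3 TPM in morchex at T48, against 73.03 to 123.1 TPM at T0, and 516.2 to 943.7 TPM in WT at T48, against 85.91 to 97.09 TPM at T0. Of 8 clock genes, 1 was called higher and 2 lower in morchex and 0 higher and 3 lower in WT. The clock genes summed to 492.5 and 520 TPM in morchex at T48, against 411.2 to 485.5 TPM at T0, and to 477.5 to 493.5 TPM in WT at T48, against 372.7 to 489.2 TPM at T0, ranges that overlapped in WT. The part of either in the WRKY changes was not tested.

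The comparison of T30 with T0 asks what 0.5 h of heat did. The 7 heat shock genes examined were all called higher in both genotypes (median log2 fold changes 8.40 in morchex and 9.29 in WT). Among the 42 tested WRKY members, 6 were called higher and 5 lower in morchex, and 4 higher and 7 lower in WT. The background was 5.59% higher and 5.17% lower in morchex, and 6.21% higher and 7.2% lower in WT. Of the 31 members that passed the filter on the T0 libraries alone, 4 were higher and 5 lower in morchex. In WT 4 of these 31 were higher and 7 lower. The shares of all such genes were 5.04% higher and 5.42% lower in morchex, and 5.71% higher and 7.47% lower in WT. WRKY18, WRKY39, WRKY15 and WRKY25 were called higher in both genotypes, and WRKY11, WRKY21, WRKY29, WRKY54 and WRKY70 were called lower in both. Tested members had a median log2 fold change of -0.10 in morchex and -0.48 in WT, against -0.01 and -0.03 for all tested genes in morchex and in WT. These comparisons use the same T0 libraries as those of T48. Of the 11 tested touch and wound genes, 4 were called higher and 2 lower in each genotype at T30. Their summed level was 126.6 and 239.6 TPM in morchex at T30, against 73.03 to 123.1 TPM at T0, and 96.09, 112.3 and 355.5 TPM in WT at T30, against 85.91 to 97.09 TPM at T0. The highest sums were in replicate 2 of morchex and replicate 3 of WT, which were also the T30 libraries with the most WRKY18. Of the 8 clock genes 2 were called lower and 0 higher in each genotype, and their sums of 245.8 and 287.9 TPM in morchex and 225.9 to 240.7 TPM in WT lay below those of T0. The lower sums came mainly from ELF4 and PRR5. The median log2 fold change of the clock genes was 0.09 in morchex and 0.17 in WT. The part of either list in the WRKY values at T30 was not tested.

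**Figure D3:**
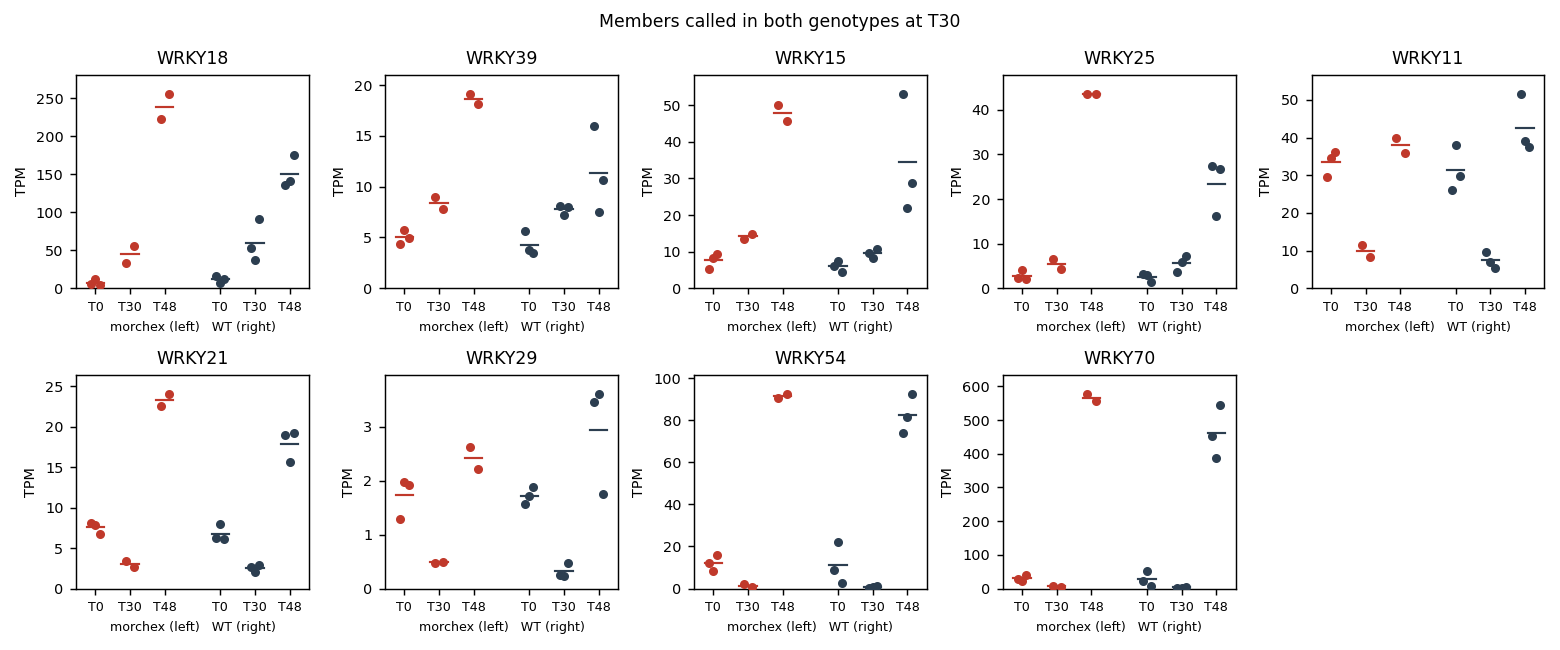
TPM of the 9 members called at T30 in both genotypes (y axis, linear, from 0), one point per library and a line at the group mean, at T0, T30 and T48 in morchex (left, red) and WT (right, dark). WRKY18 is higher at T30 and again at T48, whereas WRKY54 and WRKY70 drop at T30 and are highest at T48.

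WRKY18, the repressor of group IIa, had the largest increase at T30. It had 33.7 and 56.2 TPM in morchex at T30, against 5.84, 12.04 and 4.6 TPM at T0, and 52.6, 36.98 and 90.5 TPM in WT at T30, against 15.8, 7.25 and 12.03 TPM at T0. The groups did not overlap in either genotype, and the log2 fold changes were 2.92 (SE 0.401, edgeR adjusted p = 7.63e-05) in morchex and 2.75 (SE 0.377, edgeR adjusted p = 4.82e-05) in WT. WRKY25 and WRKY39, both known for heat tolerance, rose less. WRKY39 had 8.96 and 7.76 TPM in morchex at T30, against 4.38, 5.76 and 4.92 TPM at T0, and 8.11, 7.21 and 8.0 TPM in WT at T30, against 5.6, 3.72 and 3.52 TPM at T0. Its log2 fold changes were 1.03 (SE 0.236, edgeR adjusted p = 0.00434) and, in WT, 1.25 (SE 0.232, edgeR adjusted p = 0.000667). WRKY25 had 6.54 and 4.37 TPM in morchex at T30, against 2.33, 4.01 and 2.09 TPM at T0, and 3.75, 5.84 and 7.25 TPM in WT at T30, against 3.13, 3.05 and 1.35 TPM at T0. The gap between the groups was narrow, and the log2 fold changes were 1.27 (SE 0.334, edgeR adjusted p = 0.0103) in morchex and 1.51 (SE 0.337, edgeR adjusted p = 0.00263) in WT. WRKY15, linked to osmotic stress, had 13.5 and 14.9 TPM in morchex at T30, against 5.29, 8.38 and 9.26 TPM at T0, and 9.61, 8.36 and 10.6 TPM in WT at T30, against 6.14, 7.38 and 4.42 TPM at T0. It had log2 fold changes of 1.19 (SE 0.297, edgeR adjusted p = 0.00741) in morchex and 1.05 (SE 0.303, edgeR adjusted p = 0.0127) in WT. WRKY18 kept its call in all alternatives run, and the other 3 did not. WRKY15 was not called in 4 of 16 alternatives in morchex and 6 of 17 in WT, WRKY39 in 6 of 16 in morchex and 2 of 17 in WT, and WRKY25 in 3 of 16 in morchex and 1 of 17 in WT. WRKY15 lost its call without replicate 1 of T0 (0.98) or replicate 2 of T30 (1.07) in morchex, and without replicate 3 of T0 (0.90) or of T30 (0.98) in WT. WRKY39 in morchex lost it without replicate 1 of T0 (0.94) or of T30 (0.97), and WRKY25 in morchex without replicate 1 of T30 (1.01). The other heat tolerance genes of group I were not called at T30. WRKY26 had 0.22, 0 and 0.28 TPM in WT at T30, against 0.61, 1.12 and 0.61 TPM at T0. WRKY33 had 0.65, 2.0 and 1.83 TPM in WT at T30, against 2.05, 5.38 and 1.68 TPM at T0.

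Among the 5 members called lower in both genotypes, WRKY54 and WRKY70 had the largest decreases. WRKY54 had 1.92 and 0.68 TPM in morchex at T30, against 12.1, 8.15 and 16.1 TPM at T0, and 0.17, 0.64 and 1.11 TPM in WT at T30, against 9.02, 22.2 and 2.49 TPM at T0. WRKY54 had log2 fold changes of -2.99 (SE 0.657, edgeR adjusted p = 0.00322) in morchex and -3.87 (SE 0.729, edgeR adjusted p = 0.000765) in WT. WRKY70 had 8.91 and 5.49 TPM in morchex at T30, against 27.9, 23.6 and 38.7 TPM at T0, and 1.4, 2.86 and 5.22 TPM in WT at T30, against 21.9, 52.2 and 8.33 TPM at T0. All T30 libraries were below those of T0, and the log2 fold changes were -1.79 (SE 0.534, edgeR adjusted p = 0.02) in morchex and -2.78 (SE 0.541, edgeR adjusted p = 0.000963) in WT. WRKY11, a negative regulator of basal resistance and the highest member at T0, had 11.5 and 8.39 TPM in morchex at T30, against 29.5, 34.5 and 36.1 TPM at T0. WRKY11 in WT was at 9.68, 7.0 and 5.44 TPM at T30, against 26.1, 38.02 and 29.9 TPM at T0. It had the smallest adjusted p of the WT members, with log2 fold changes of -1.47 (SE 0.21, edgeR adjusted p = 0.000109) in morchex and -1.67 (SE 0.197, edgeR adjusted p = 1.19e-05) in WT. WRKY21 had 3.43 and 2.61 TPM in morchex at T30, against 8.16, 7.88 and 6.75 TPM at T0, and 2.63, 2.06 and 2.89 TPM in WT at T30, against 6.24, 7.96 and 6.15 TPM at T0. Its groups did not overlap, with log2 fold changes of -1.05 (SE 0.155, edgeR adjusted p = 0.00015) in morchex and -1.02 (SE 0.151, edgeR adjusted p = 9.56e-05) in WT, close to the fold of 2 used to call. WRKY29, downstream of the flagellin receptor, had 0.48 and 0.49 TPM in morchex at T30, against 1.28, 1.98 and 1.92 TPM at T0, and 0.26, 0.24 and 0.48 TPM in WT at T30, against 1.57, 1.71 and 1.89 TPM at T0. The log2 fold changes of WRKY29 were -1.52 (SE 0.422, edgeR adjusted p = 0.014) in morchex and -1.99 (SE 0.458, edgeR adjusted p = 0.00316) in WT, and it overlaps an opposite-strand gene, AT4G23560. WRKY54 and WRKY11 kept their calls in all alternatives run. In morchex, WRKY70 was not called without replicate 3 of T0 (-1.56) or without either T30 library (-2.12 and -1.51), and WRKY29 was not called without either T30 library (-1.46 and -1.58). WRKY21 fell short of the fold threshold without replicate 1 of T0 (-0.98) or replicate 2 of T30 (-0.90) in morchex, and without replicate 2 of T0 (-0.91) or of T30 (-0.94) in WT.

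A few members were called at T30 in 1 genotype. WRKY53 and WRKY60 were called lower in WT. WRKY53 had 0.81 and 0.53 TPM in morchex at T30, against 0.50, 0.74 and 0.73 TPM at T0, with a log2 fold change of 0.30 (SE 0.411, edgeR adjusted p = 0.612). WRKY53 in WT was at 0.15, 0.21 and 0.23 TPM at T30, against 1.22, 0.75 and 0.56 TPM at T0, with a log2 fold change of -1.79 (SE 0.556, edgeR adjusted p = 0.019). The difference between the genotypes in this change did not pass, with an interaction of 2.1 (SE 0.699, edgeR adjusted p = 0.537). WRKY60 had log2 fold changes of -0.52 (SE 0.798, edgeR adjusted p = 0.662) in morchex and -2.2 (SE 0.749, edgeR adjusted p = 0.0303) in WT, and its interaction was 1.68 (SE 1.15, edgeR adjusted p = 0.655). WRKY28 and WRKY48 (AT5G49520), a negative regulator of basal resistance, were called higher in morchex, at under 1 TPM in each T30 library. WRKY28 had 0.58 and 0.54 TPM in morchex at T30, against 0.11, 0.07 and 0.16 TPM at T0, and WRKY48 had 0.97 and 0.26 TPM, against 0.21, 0.05 and 0.29 TPM. The morchex groups of WRKY48 overlapped. Each of these 4 calls was lost when single libraries were left out, for example WRKY53 (-1.37) and WRKY60 (-1.4) without replicate 1 of WT at T0, and WRKY28 (2.39) and WRKY48 (1.94) without replicate 1 of morchex at T0. Over all members, 0 were called for the interaction of genotype and heat, with a background of 0.00531%. At an unadjusted p under 0.05 and a fold over 2 there was 1 member, WRKY53, against 2.05% of all tested genes, and DESeq2 called 0.

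The genotype comparison asks whether loss of the MORC proteins changed WRKY levels at each time. At T0, 0 of 42 tested members were called in either direction, with a background of 0.292%, and DESeq2 called 0 as well. At an unadjusted p under 0.05 and a fold over 2 there was 1 member, WRKY60, against 1.5% of all tested genes. It had 0.83, 0.38 and 0.74 TPM in morchex and 3.4, 1.1 and 1.16 TPM in WT, with replicate 1 of WT well above the rest and no overlap, and its log2 fold change was -1.54 (SE 0.606, edgeR adjusted p = 0.596). The next members by p were WRKY26, at -1.74 (SE 0.865, edgeR adjusted p = 0.721), and WRKY30 (edgeR adjusted p = 0.732). WRKY30 had 0 counts in morchex and 5 in WT, all in 1 library, so no fold is given. The median of the tested members was -0.02, against -0.01 for all tested genes.

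At T30, 0 of 42 tested members were called between morchex and WT, with a background of 0.59%, and DESeq2 called 0. At an unadjusted p under 0.05 and a fold over 2 there were 2, both higher in morchex, against 2.82% of all tested genes. WRKY53 had 0.81 and 0.53 TPM in morchex and 0.15, 0.21 and 0.23 TPM in WT at T30. The libraries did not overlap, and the log2 fold change of 1.7 (SE 0.562, edgeR adjusted p = 0.108) did not pass the threshold. WRKY48 had 0.97 and 0.26 TPM in morchex and 0.28, 0.12 and 0 TPM in WT, which overlapped, at 1.85 (SE 0.716, edgeR adjusted p = 0.16). WRKY2 had 4.2 and 3.55 TPM in morchex and 3.19, 2.61 and 2.38 TPM in WT, at 0.37 (SE 0.162, edgeR adjusted p = 0.203).

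At T48, 5 of 42 tested members were called higher in morchex than in WT and 0 lower, with a background of 2.89% higher and 3.31% lower. The 5 were WRKY8, WRKY6, WRKY47, WRKY60 and WRKY26. Of all tested members, 36 had a log2 fold change above 0 and 6 below, with a median of 0.35, against 0.02 for all tested genes. WRKY8 had 17.96 and 19.3 TPM in morchex at T48 and 5.19, 4.02 and 8.42 TPM in WT. Both morchex libraries were above all 3 WT libraries, with a log2 fold change of 1.52 (SE 0.286, edgeR adjusted p = 0.00202). WRKY6 had 17.5 and 18.7 TPM in morchex and 9.07, 5.05 and 10.1 TPM in WT, again with no overlap, at 1.02 (SE 0.204, edgeR adjusted p = 0.00275). Its fold lay just above the threshold, and it was not called with upper-quartile scaling (0.94), with counts thinned to equal depth (0.93) or with the trend with gene length removed (0.95).

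WRKY47 had 8.11 and 7.96 TPM in morchex at T48 and 2.97, 1.67 and 3.13 TPM in WT, with a log2 fold change of 1.49 (SE 0.312, edgeR adjusted p = 0.00378). WRKY60 had 33.7 and 41.6 TPM in morchex and 10.98, 6.45 and 18.7 TPM in WT, at 1.5 (SE 0.398, edgeR adjusted p = 0.0139). WRKY26, a heat tolerance gene of group I, had 12.99 and 9.48 TPM in morchex and 6.09, 1.61 and 2.8 TPM in WT, at 1.57 (SE 0.524, edgeR adjusted p = 0.0399). It passed the filter on low counts only with the later libraries included. In each of the 3 the morchex libraries lay above those of WT, and DESeq2 did not call WRKY26 (adjusted p = 0.0606). Replicate 2 of WT was the lowest of the 3 WT libraries at T48 for 30 of the 42 tested members, or 71.4%, against 41.5% of all tested genes, and without it 2 members were called in place of 5. The members not called without it were WRKY6 (0.79), WRKY60 (1.22) and WRKY26 (1.24). WRKY6 was also not called without replicate 3 of morchex (0.99), WRKY60 without replicate 2 (1.63) or 3 (1.35) of morchex, and WRKY26 without replicate 2 (1.31) or 3 (1.78) of morchex or replicate 3 of WT (1.41). Of the 18 defence genes, 5 were called higher in morchex at T48 (FRK1, NPR3, PR1, PR2 and PR5) and 0 lower. PR1, the standard marker of salicylic acid responses, had 1127 and 2657 TPM in morchex and 180.2, 557 and 393 TPM in WT at T48. Of the 9 kinases and VQ partners 0 were called, and of the 9 tested other WRKY genes 0 were called.

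**Figure D4:**
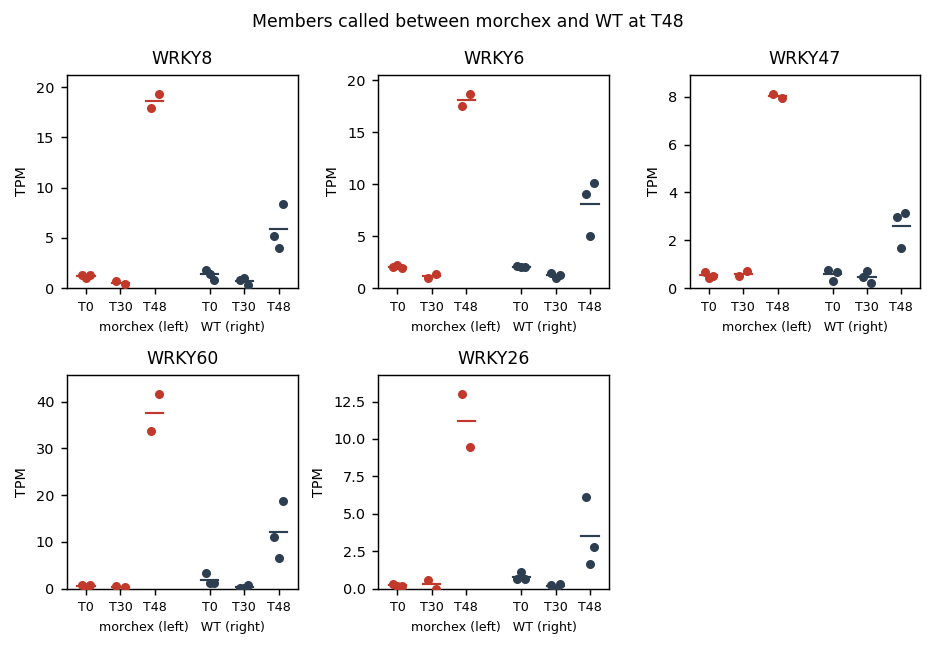
TPM of the 5 members called between morchex and WT at T48 (y axis, linear, from 0), one point per library and a line at the group mean, at T0, T30 and T48 in morchex (left, red) and WT (right, dark). Both morchex T48 libraries lie above the 3 WT T48 libraries in each panel, while at T0 WRKY60 and WRKY26 lie lower in morchex.

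The interaction of genotype and time tests whether the change at T48 itself differed. It was called higher for 3 of 42 tested members and lower for 0, with a background of 1.31% higher and 2.38% lower. WRKY60 had the largest of the 3, at 3.04 (SE 0.725, edgeR adjusted p = 0.0204). It changed by 5.46 in morchex and by 2.43 in WT on the log2 scale, and its values at T0, lower in morchex, enter the interaction as much as those at T48. WRKY8 had an interaction of 1.75 (SE 0.47, edgeR adjusted p = 0.0338), from changes of 3.61 in morchex and 1.86 in WT. WRKY6 had 1.04 (SE 0.31, edgeR adjusted p = 0.0497), from 2.8 in morchex and 1.76 in WT. WRKY26, at 3.31 (SE 1.01, edgeR adjusted p = 0.0547), and WRKY47, at 1.58 (SE 0.533, edgeR adjusted p = 0.0764), did not pass. The count of 3 depended on single libraries. It was 0 without replicate 1 of WT at T0 or without replicate 3 of morchex at T48. It was 1 with counts thinned to equal depth. WRKY60 was called under thinning, WRKY8 (1.71) and WRKY6 (0.90) were not, and the morchex T48 libraries held 24374647 and 25054384 counts, against 9455267 to 11731207 in the WT T48 libraries.

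Peak lists of chromatin immunoprecipitation for TPL and LUG, co-repressors tagged with 3xFLAG and driven by their own promoters, were available for morchex and for WT with 1 list each, so the following are counts with no test. A summit lay in the promoter window (1000 bases before to 200 after the start) of 18 of 44 members for TPL in morchex (40.9%) and 14 for TPL in WT (31.8%), against 19.1% and 14.2% of all 32835 genes in morchex and in WT. For LUG there were 6 members in morchex (13.6%) and 3 in WT (6.8%), against 7.4% and 3.6% of all genes. Unlike the background of the W-box counts, these 32835 genes were not limited to those that code for protein. The morchex lists were longer for both proteins, with 12224 TPL peaks in morchex and 10267 in WT and with 5351 LUG peaks in morchex and 2721 in WT, and the share of all genes moved with them. TPL was at 12 members in both genotypes, at 6 in morchex alone and at 2 in WT alone. A total of 20 members had a summit in at least 1 of the 4 lists. The shares of all genes in these overlap sets were not counted, so these counts have no background. The longer morchex lists also give any set of genes more summits in morchex alone.

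WRKY47 had the highest-ranked peaks among the 44 members. Its TPL summit lay at position -632 relative to the annotated start in morchex and at -655 in WT, at rank 285 of 12224 peaks in morchex and rank 264 of 10267 in WT. Its LUG summit lay at position -626 in morchex and at -675 in WT, at rank 230 of 5351 peaks in morchex and rank 197 of 2721 in WT. WRKY47 was also one of the 5 members higher in morchex at T48. Of the other 4, WRKY8 had a TPL summit in morchex, of low rank (9594), and WRKY6, WRKY26 and WRKY60 had none in any list. WRKY32, not called in any RNA-seq comparison, was the other member with TPL and LUG summits in both genotypes. The TPL summits of WRKY51 lay at position -170 in morchex and at -143 in WT, within the promoter sequence printed above. The peak lists came from inflorescence and meristem tissue, with no heat treatment stated.

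The comparison of lug with Ler asks whether loss of LUG changed WRKY levels. Of the 33 tested members 0 were called, with a background of 0.414%. The count was 0 at an unadjusted p under 0.05 and a fold over 2, against 2.53% of all tested genes, and 0 with DESeq2. The smallest adjusted p of any member was 0.703. WRKY69 (AT3G58710) had 2.04, 1.84 and 1.23 TPM in lug and 2.66, 3.16 and 2.64 TPM in Ler. Its libraries did not overlap, and the log2 fold change was -0.64 (SE 0.284, edgeR adjusted p = 0.703). WRKY11 had 48.4, 53.8 and 38.5 TPM in lug and 37.5, 40.1 and 50.1 TPM in Ler, which overlapped, at 0.27 (SE 0.156, edgeR adjusted p = 0.788). WRKY1 had 15.6, 14.8 and 10.1 TPM in lug and 16.3, 17.2 and 19.4 TPM in Ler, all lug libraries being lower, at -0.26 (SE 0.163, edgeR adjusted p = 0.797). The median over the tested members was -0.09, against 0.01 for all tested genes.

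The spread between libraries of 1 genotype was wide in many members. Replicate 2 was the highest of the 3 lug libraries for 23 of 33 tested members, or 69.7%, against 33.4% of all tested genes, and replicate 3 the lowest for 27, or 81.8%, against 51.9%. In Ler replicate 2 was the highest for 21, or 63.6%, against 49.0%. WRKY18 had 12.5, 66.5 and 8.18 TPM in lug and 12.3, 24.9 and 13.01 TPM in Ler. WRKY60 had 5.41, 18.6 and 1.48 TPM in lug and 2.61, 11.6 and 6.19 TPM in Ler. WRKY38 had 0.48, 6.02 and 0.33 TPM in lug and 2.21, 14.96 and 1.07 TPM in Ler. In each of these 3 members replicate 2 was the highest library of its genotype and the ranges overlapped. WRKY51, which did not pass the filter, had 0.76, 3.73 and 0 TPM in lug and 0.35, 11.8 and 0.79 TPM in Ler. WRKY20 was steadier, with 19.2, 19.6 and 14.7 TPM in lug and 19.2, 21.8 and 21.98 TPM in Ler. PR1 varied in the same libraries, with 27.2, 564 and 0.24 TPM in lug and 65.6, 1218 and 7.45 TPM in Ler. The 7 floral organ genes summed to 32.63 to 99.33 TPM in lug and 9.69 to 32.84 TPM in Ler, and their part in the WRKY values was not tested. Most of each sum was SEP3, with 90.8, 54.9 and 29.4 TPM in lug and 16.9, 6.02 and 24.7 TPM in Ler.

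**Figure D5:**
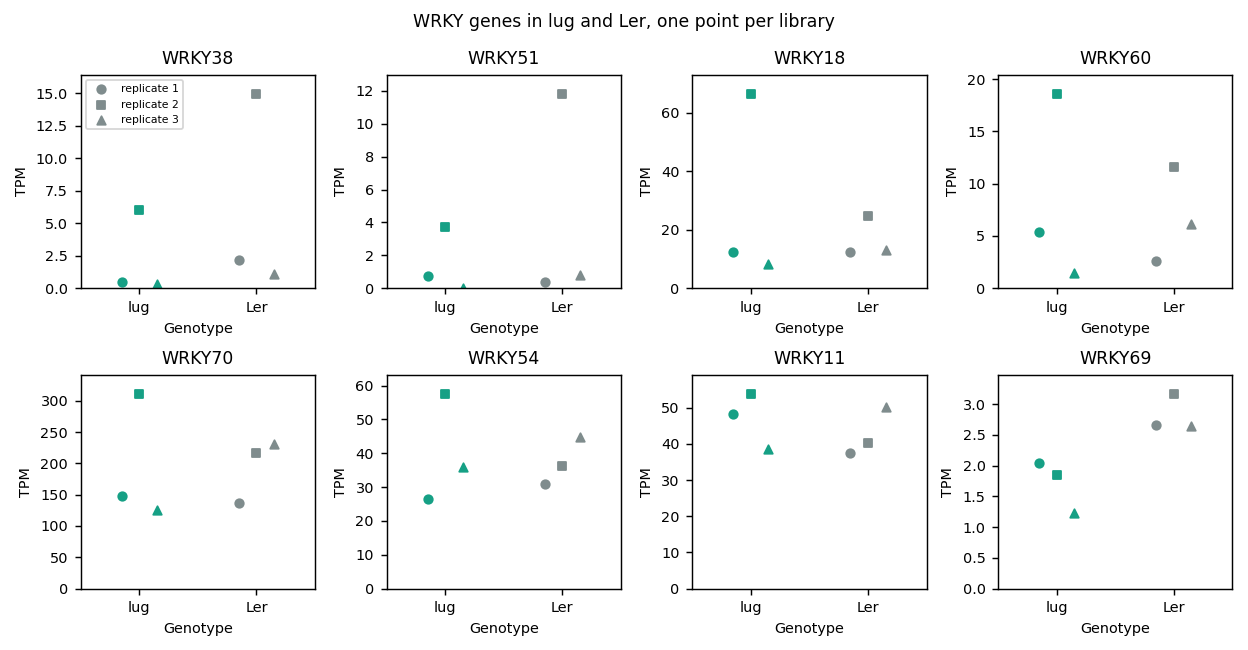
TPM of 8 members (y axis, linear, from 0) in lug (left) and Ler (right), one point per library with the replicate number as the symbol. Replicate 2 is the highest library in both genotypes for WRKY38, WRKY51, WRKY18 and WRKY60, the ranges of lug and Ler overlap in 7 panels, and WRKY69 is lower in all 3 lug libraries.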

How the data were processed

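RNA-seq libraries of morchex and WT (16 in 6 groups) and of lug and Ler (3 each), and 4 lists of TPL and LUG ChIP-seq peaks, were analysed. ATAC-seq and untagged ChIP-seq samples were not used here. The members, a family given by gene identifier, and the lists were chosen with earlier results of these data known.

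The authors used Bowtie2 2.1.0, the TAIR10 build and RSEM for the RNA-seq reads. The deposited tables give expected counts, which are not normalized, TPM and FPKM. The expected counts were estimated by the authors with RSEM and the TPM values by the authors from those counts and effective lengths. FPKM, also deposited, was not used. MACS2 2.1.1 was the peak caller of the authors, whose deposited peak lists carry a score, a fold enrichment (a ratio over local background), −log10 p-values and −log10 q-values per peak. Peaks were ranked within their own list only. Peak positions were matched to gene starts of the RefSeq annotation of TAIR10.1, and after moving the peaks by 5000 bases the share of genes with a TPL summit in WT was 9.6% in place of 14.2%.

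After rounding, the expected counts entered edgeR 4.0.16 (TMM, filterByExpr by group, quasi-likelihood F test) in R 4.3.3, in 1 fit over the heat libraries and 1 over lug and Ler, which kept 18827 and 17643 features. TMM factors were 1.01 to 1.06 at T0, 0.752 to 0.876 at T30 and 1.16 to 1.24 at T48. A gene was called at a Benjamini-Hochberg adjusted p under 0.05 and a fold change over 2. The biological coefficient of variation was 0.155 in the heat fit and 0.283 in the other. Members with 0 counts in a group have a lower bound on the fold against 3 counts over the group, and ratios of sparse counts carry exact 95% intervals that cover counting error only. Values by library are given for up to 10 called members per comparison, those with the smallest adjusted p, or for the 3 with the smallest p where fewer than 3 were called. Other members were named after their values were seen.

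Alternatives were DESeq2 1.42.0, limma 3.58.1 on log2(TPM + 1) and log2(TPM + 0.1), upper-quartile scaling, no filter on low counts, no fold threshold, an unadjusted p, separate fits for each pair of groups, a replicate block, and each library left out. Thinning to equal depth and removal of a trend with gene length were added after the data were seen. On simulated data with 200 changed genes the pipeline recovered 100% of 3-fold and 4-fold changes in WT at T30 against T0, and 82% of 3-fold and 97% of 4-fold changes in lug against Ler. It also called 3 other genes in the WT comparison and 13 in lug against Ler. Comparisons with the morchex groups of 2 libraries were not simulated.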

Additional observations from a re-analysis of the deposited data

Results flagged for a closer look

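The changes of WRKY60, WRKY8 and WRKY6 between T48 and T0 differed between morchex and WT by the interaction term of edgeR's quasi-likelihood test. The interaction was 3.04 on the log2 scale for WRKY60, 1.75 for WRKY8 and 1.04 for WRKY6, each positive because the increase was larger in morchex. WRKY60 was no longer called in 2 of the alternatives tried, WRKY8 in 11 and WRKY6 in 16, with largest adjusted p of 0.0894, 0.148 and 0.212. No group held 4 or more libraries, so no single library was tested as standing apart from its group.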

How the results depend on the processing

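The count of members called higher at T48 was within 1.5 times of 28 in morchex and 26 in WT under every alternative run. Members called in either direction in WT at T30 numbered 18 with no fold threshold, in place of 11. An unadjusted p gave 1 member between morchex and WT at T0, 2 at T30, 1 for the interaction at T30 and 6 for the interaction at T48. The interaction at T48 gave 5 members with DESeq2, 6 with limma on log2(TPM + 1), 1 with thinned counts and 0 to 3 with a library left out. Beyond the unadjusted shares given above, no share of all genes is set beside the members called under these alternatives. A looser threshold raises the count over all genes as well, so a larger count of members is not a stronger result. Members higher in morchex at T48 numbered 3 with upper-quartile scaling and 2 to 6 with a library left out. In morchex at T30, 5 members were called with log2(TPM + 1), 6 with log2(TPM + 0.1) and 5 to 9 with a library left out. Leaving out replicate 1 of WT at T30 reversed WRKY48 in WT to -0.33. The cause of these shifts was not tested. On the TPM scales the median change of all genes reached -0.42 at T30 in WT and 0.35 at T48 in morchex, against -0.03 and 0.03 with TMM. Replicate numbers did not pair the libraries (correlations of same-numbered libraries -0.49 to 0.12), and with the replicate number as a block 28 members in morchex and 26 in WT were called at T48, 6 between the genotypes at T48 and 3 for the interaction. Under the block WRKY6 was not called for the interaction (1.08, edgeR adjusted p = 0.0554), WRKY26 was (3.89, edgeR adjusted p = 0.0265), and WRKY39 in morchex at T30 was not called (0.97). Among single values, 61 of 96 kept their direction and call in all alternatives run.

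Peak counts are given in the order TPL in morchex, TPL in WT, LUG in morchex and LUG in WT. A window of 3000 bases gave 31, 26, 12 and 6 of 44 members, against 30.9%, 24.5%, 13.5% and 7.1% of all genes. A −log10 q of at least 10 gave 8, 5, 2 and 1 members, against 7.3%, 3.6%, 2.0% and 0.9% of all genes. Any overlap in place of the summit gave 28, 25, 9 and 4 members, against 25.6%, 20.5%, 8.8% and 4.2% of all genes. At the lowest depth, 8606374 counts, members with a few counts per library were not resolved.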
